A study of Rattus norvegicus with 12 samples.

Results

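Trigeminal ganglia of rats carrying capsules of 40% estradiol (E2) were compared with those of rats carrying capsules of 20% E2, to see whether the transcriptome still changed when the dose was raised above 20%. The comparison takes 6 of the 12 RNA sequencing libraries of the series, chosen by the treatment given in the labels: 3 at 40% E2, which the labels call a therapeutic level, and 3 at 20% E2, which they equate with proestrus. The remaining 6 libraries, 3 with vehicle capsules (100% cholesterol) and 3 with 5% E2 (equated with diestrus), served as reference levels and helped to estimate the spread. All rats were female Sprague Dawley, an outbred stock, and had carried their capsule for 1 week. Whole right ganglia were used, so fewer cells of a type and less RNA per cell cannot be told apart. The sources used here give neither the age nor the ovarian status of the rats. The labels do not say whether each library came from its own animal, so the p-values reflect only how much these libraries vary.

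Estradiol is the main ovarian estrogen. It acts through the nuclear receptors estrogen receptor alpha and beta, which bind DNA and alter transcription of target genes, and through a membrane receptor. A receptor-driven response reaches a plateau once most receptors are occupied, which is why a pair of high doses can be compared to look for saturation. Sensory neurons that innervate the face and meninges have their cell bodies in the trigeminal ganglion, wrapped by satellite glia, with their axons in Schwann cell sheaths. Many of them release the peptides CGRP and substance P and carry receptors for serotonin, and estrogen receptors are found in the ganglion. The series asks how E2 dose alters the response of these neurons to serotonin.

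Expression is given as FPKM, the number of fragments counted for a gene, divided by the length of its model and by the depth of the library. The files pair no gene name with their 32545 Ensembl rat identifiers, and none of these matched the reference gene table used here (47357 genes), so genes are described by identifier, by the length of their gene model and by their values. The labelled tissue was therefore not checked against marker genes, and fixed lists of estrogen, serotonin, neuropeptide and glial genes were not analysed here. Fragment numbers were recovered from the FPKM values, which are whole multiples of what 1 fragment is worth in each library. The libraries held 13320156 to 16900117 fragments at 20% E2 and 13281981 to 13801881 at 40% E2. Between 18233 and 18836 genes were above 0 at 20% E2, against 18271 to 18654 at 40% E2. Genes with an FPKM of 1 or more in at least 3 of the 12 libraries were tested, 14781 in all. The 390 genes that reached this level in exactly 3 libraries had a median mean FPKM of 0.728, and the 577 that reached it in only 2, which were left out, one of 0.524.

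One gene was higher at 40% than at 20% E2, and none was lower. ENSRNOG00000012490, with a gene model of 2248 bases, was at 8.12, 6.64 and 7.63 FPKM in the 3 libraries at 20% E2. At 40% E2 it was at 21.9, 21.2 and 26.3 FPKM. The lowest 40% library was thus far above the highest 20% library, and the replicates of each dose lay close together. On average the gene rose 3.10-fold, from 7.46 ± 0.752 FPKM (SD, n = 3) to 23.2 ± 2.76. The difference in log2(FPKM + 1), a scale that compresses changes of low genes, was 1.51 ± 0.18 (SE), with a 95% confidence interval of 1.12 to 1.90 and a limma adjusted p of 0.038. These values rested on 208 to 293 fragments per library at 20% E2 and 658 to 799 at 40% E2.

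The other 2 groups placed this gene between the 2 doses. Vehicle libraries were at 10.4, 15.2 and 10.8 FPKM, and 5% E2 libraries at 11.3, 8.29 and 14.1. All 6 of these libraries lay above every 20% library and below every 40% library. The log2 difference from vehicle was −0.62 at 20% E2 (limma adjusted p = 0.785) and 0.89 at 40% E2 (adjusted p = 0.344), so that neither dose passed the threshold of 0.05 against vehicle. These 2 comparisons share the vehicle libraries. The order of the group means was 20% E2, 5% E2, vehicle and 40% E2, in which 5% E2 and vehicle overlapped. In these means the level did not follow the dose in one direction. The gene was called for the distance between the 2 doses, which favours such an order, so nothing is read from it.

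The call depended on which libraries entered the fit. Leaving out a vehicle or 5% E2 library cannot change the difference, which rests on the 20% and 40% means alone. Over the leave-out fits that lost the call, the log2 difference was 1.42 to 1.57 (limma adjusted p up to 0.361 without 20% E2 replicate 2). The call was lost without vehicle replicate 1 or 3, 5% E2 replicate 1, or any of the 6 libraries at 20% or 40% E2. It was also lost with no filter on low values (adjusted p = 0.0992) and with limma run without a variance trend and robust moderation (0.0733). With the replicate number of the labels as a block in the fit, the call was lost too (limma adjusted p = 0.193).

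**Figure D1:**
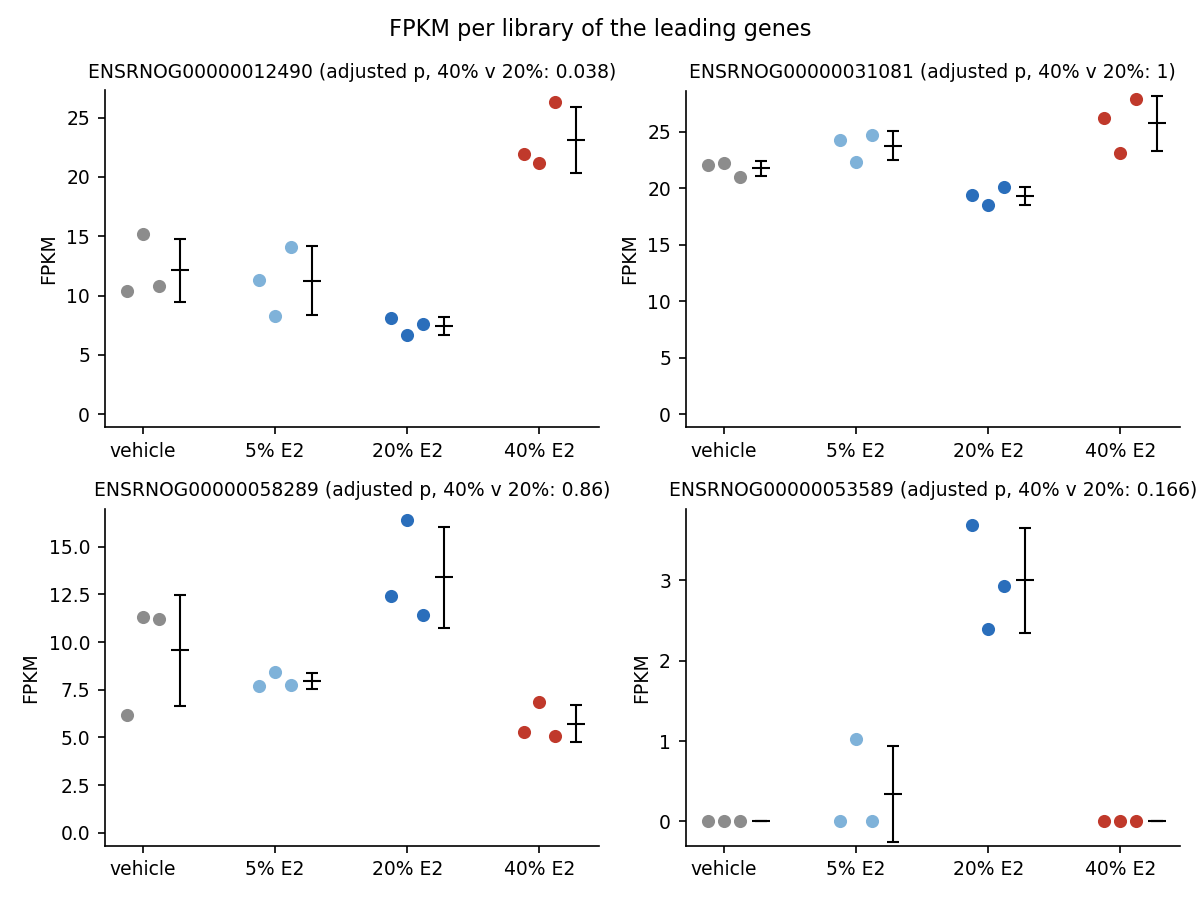
FPKM (vertical axis) of 4 genes in each of the 12 libraries, by capsule group; coloured points are libraries, black bars the group mean ± SD. ENSRNOG00000012490 is at 6.64 to 8.12 FPKM at 20% E2 and 21.2 to 26.3 at 40% E2, with vehicle and 5% E2 between, and the other 3 genes did not pass the test.

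**Figure D2:**
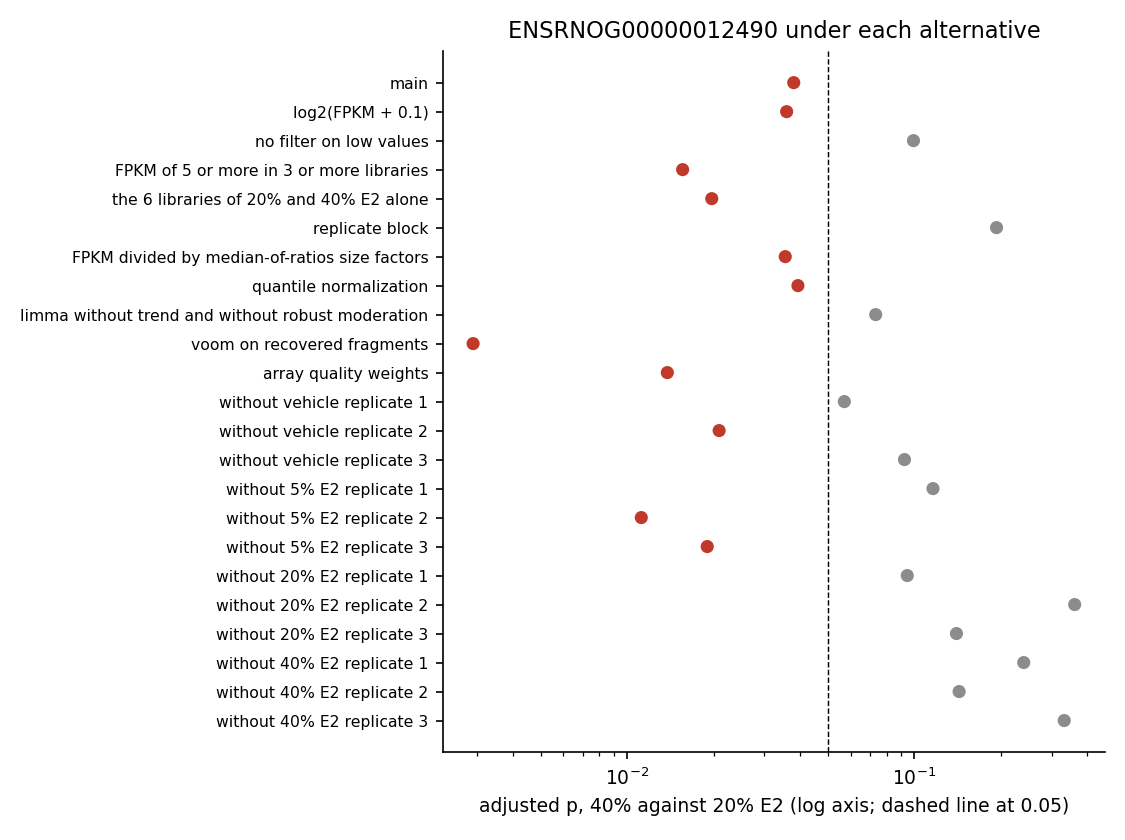
Adjusted p (horizontal log axis) of ENSRNOG00000012490 for 40% against 20% E2 in the reported fit and in 22 alternatives (vertical axis); red points are under 0.05, the dashed line. It was called in 10 of the 22 alternatives and not in 12. Its difference kept its direction in all 22, which doses without overlap bring about.

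Called genes made up 0.00677% of the genes tested for a rise and 0.0% for a fall. Without adjustment, limma gave a p under 0.05 for 209 genes with higher (1.41%) and 220 with lower values (1.49%) at 40% E2, together 2.9% of those tested. Limma's voom on the recovered fragments called the same single gene and no gene with lower values, with 152 and 181 genes at an unadjusted p under 0.05. In 640 genes (4.33%) all 3 libraries at 40% E2 were above all 3 at 20% E2, and in 605 (4.09%) all were below. The median difference over all genes tested was 0.001.

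The other genes of small p did not pass the test. ENSRNOG00000031081, with a model of 4024 bases, was at 19.4, 18.5 and 20.1 FPKM at 20% E2 and 26.2, 23.1 and 27.9 at 40% E2. Its groups did not overlap, but the log2 difference was only 0.39 (95% interval 0.22 to 0.56, limma adjusted p = 1.0). Vehicle libraries, at 21.0 to 22.2 FPKM, lay between. Among genes with lower values at 40% E2, ENSRNOG00000058289 (381 bases) was at 12.4, 16.4 and 11.4 FPKM at 20% E2 and 5.28, 6.85 and 5.05 at 40% E2. That is a log2 difference of −1.09 (interval −1.53 to −0.65, adjusted p = 0.86) on 225 fragments against 89. Its vehicle libraries, at 6.18, 11.3 and 11.2 FPKM, ran from the 40% range to just under the 20% range.

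The lowest p in the downward direction belonged to ENSRNOG00000053589 (adjusted p = 0.166), a gene with a model of only 60 bases. It was at 3.69, 2.39 and 2.93 FPKM at 20% E2 and listed at 0 in every library at 40% E2 and in every vehicle library. These values stood for 3, 2 and 3 fragments, at or under the floor of 3 fragments in each library, so no fold is given. It met the filter only through 5% E2 replicate 2 (1.03 FPKM) and the 3 libraries at 20% E2, where it is high. Without 5% E2 replicate 2 its limma adjusted p was 0.0262, but only the 3 libraries at 20% E2 then met the filter. Nothing is therefore read from its p in either fit. Such floors cover counting error only, since without molecular identifiers PCR copies are counted as fragments too.

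The 12 genes of smallest p in each direction, among those with a mean of at least 2 FPKM at either dose, were examined together. Of these 24 genes, 1 passed the threshold and 23 did not. The 12 with higher values had log2 differences of 0.37 to 1.80 and models of 102 to 4024 bases, and the 12 with lower values −1.99 to −0.33 and 60 to 3379 bases. In all 24 the 2 doses did not overlap, which the choice by smallest p brings about (8.42% of all genes tested did not overlap). In 4 of the 12 in each direction, fewer than 100 fragments were counted over the 6 libraries.

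Vehicle served as the reference for these 24 genes. The vehicle mean lay between the means of the 2 doses for 11 of the 12 genes with higher values and 9 of the 12 with lower values. In 1 more of the latter, ENSRNOG00000053589, vehicle and 40% E2 were both at 0. The genes were chosen for the distance between the doses, which favours such an order, so nothing is read from that count. None passed the threshold against vehicle at 20% or at 40% E2 (limma adjusted p under 0.05 for 0.00677% and 0.0% of all genes tested, and an unadjusted p under 0.05 for 6.07% and 5.87%). One of the exceptions was a gene with a model of 3379 bases. It was at 3.15, 3.57 and 3.43 FPKM at 20% E2 and at 0.75, 1.01 and 0.636 at 40% E2 (log2 difference −1.29, interval −1.99 to −0.59, adjusted p = 1.0). In vehicle it was at 2.65, 6.22 and 3.02 FPKM and at 5% E2 at 0.813, 2.79 and 0.569. All vehicle libraries were above those at 40% E2, while 2 of the 3 libraries at 5% E2 were in or below the range of 40% E2.

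**Figure D3:**
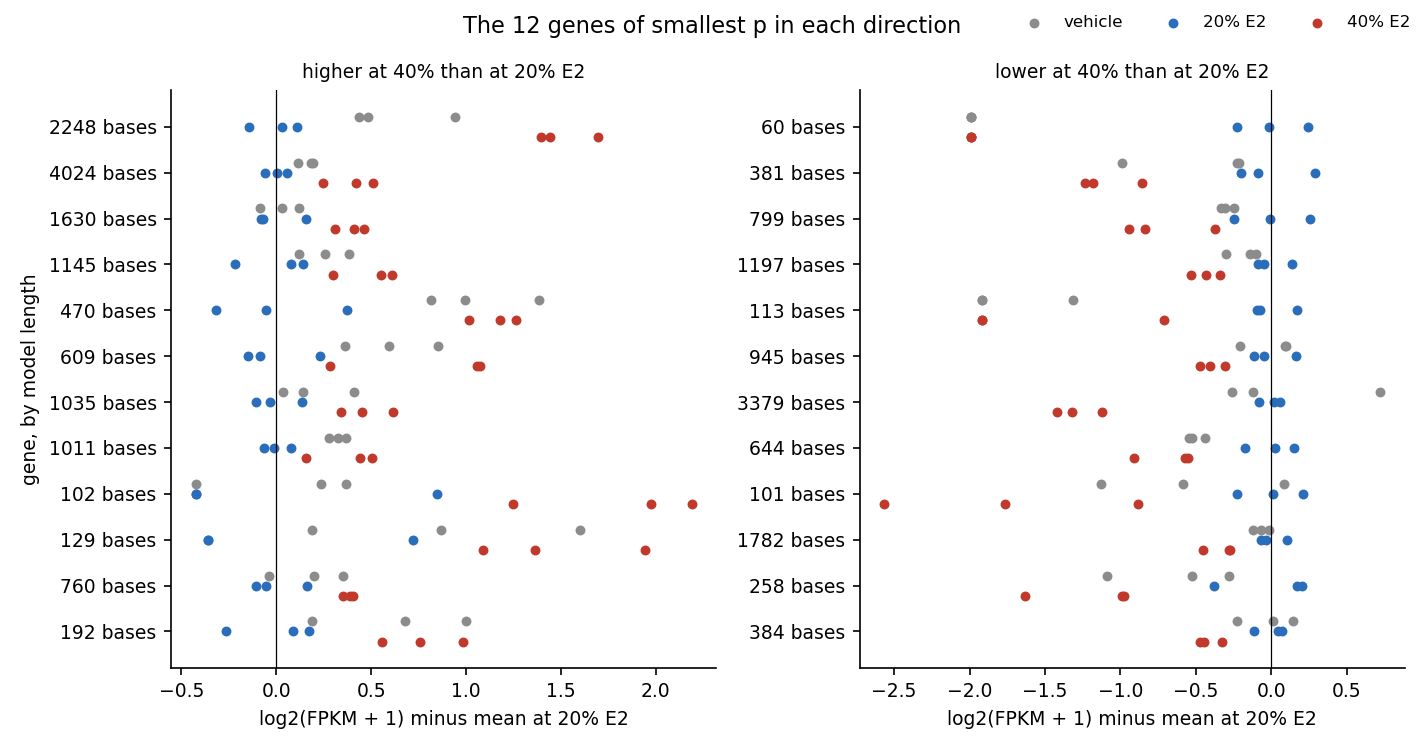
Log2(FPKM + 1) in each library minus the gene's mean at 20% E2 (horizontal axis) for the 12 genes of smallest p in each direction, labelled by model length (vertical axis); each point is 1 library of vehicle, 20% or 40% E2. Points of the 2 doses are apart in every row by choice, and vehicle libraries lie between or beside them.

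Large differences between the doses were mostly found in short gene models. The 2 doses were more than 1 log2 unit apart in 142 genes (0.961% of those tested), and 96 of these had models under 300 bases. In that class 9.62% of genes differed by more than 1 unit, on a median of 19 fragments over the 6 libraries. Among models of 3000 bases or more it was 0.0213%, on a median of 3874 fragments. Non-overlapping doses were as frequent in short as in long models, at 7.72% and 7.76%.

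**Figure D4:**
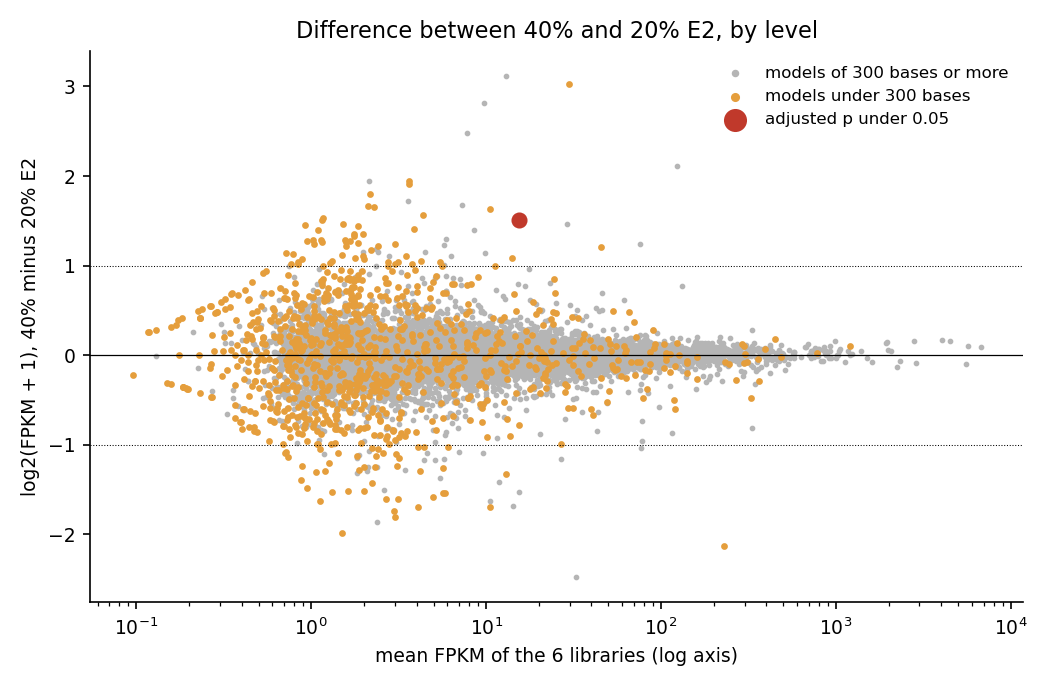
Difference of log2(FPKM + 1) between 40% and 20% E2 (vertical axis) against the mean FPKM of the 6 libraries (horizontal log axis); each point is 1 of the genes tested, dotted lines mark 1 log2 unit. Most points beyond the lines are models under 300 bases (orange, 96 of 142 genes), and the 1 called gene (red) lies at 1.51.

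Of 12023 genes with models of 1000 bases or more, 22 differed by more than 1 unit, 11 in each direction. One is ENSRNOG00000012490. The other 21 had adjusted p-values of 1.0, and in 20 of the 22 genes the libraries of a single dose were themselves more than 1 unit apart. In 16 of the 22 they were more than 2 units apart. The doses overlapped in 13 of the 22 and were apart in 9, while they were apart in 8.42% of all genes tested. The 22 were chosen for a large difference between the doses, which favours such separation, so nothing is read from that count.

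The largest of these differences showed levels that switched from library to library within a dose. A gene of 1089 bases was listed at 0 in 2 libraries at 20% E2 and was at 13.8 FPKM in the third. At 40% E2 it was at 15.3, 17.7 and 30.9 FPKM, a log2 difference of 3.12 with an interval of −0.46 to 6.70. In vehicle it was listed at 0 in 2 libraries and was at 21.1 FPKM in the other one, and at 5% E2 it was at 14.6, 15.1 and 0. High and zero values thus occurred together in every group except 40% E2.

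A gene of 1131 bases was at 7.90, 0.127 and 0.362 FPKM at 20% E2 and 10.3, 10.4 and 17.2 at 40% E2 (log2 difference 2.48, interval −0.51 to 5.46). Its vehicle libraries were at 0, 21.3 and 0.0524 FPKM. High values of this gene and of the gene of 1089 bases fell in the same libraries, namely vehicle replicate 2, 5% E2 replicates 1 and 2, 20% E2 replicate 1 and all at 40% E2. A gene of 1400 bases switched within both doses, with 2.85, 3.84 and 40.5 FPKM at 20% E2 and 68.4, 54.1 and 3.23 at 40% E2 (log2 difference 1.46, interval −1.58 to 4.50).

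In the downward direction, a gene of 1107 bases was at 2.07, 35.4 and 29.3 FPKM at 20% E2 and 22.3, 0.982 and 2.07 at 40% E2 (log2 difference −1.53, interval −3.98 to 0.93). Each dose held both a high and a low library. A gene of 2037 bases was at 4.10, 0.951 and 8.76 FPKM at 20% E2 and 0.658, 0.819 and 0.400 at 40% E2 (log2 difference −1.51). Its vehicle libraries, at 0.451 to 0.582 FPKM, were as low as those at 40% E2. Only the 20% group held more than 1 high library of this gene.

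**Figure D5:**
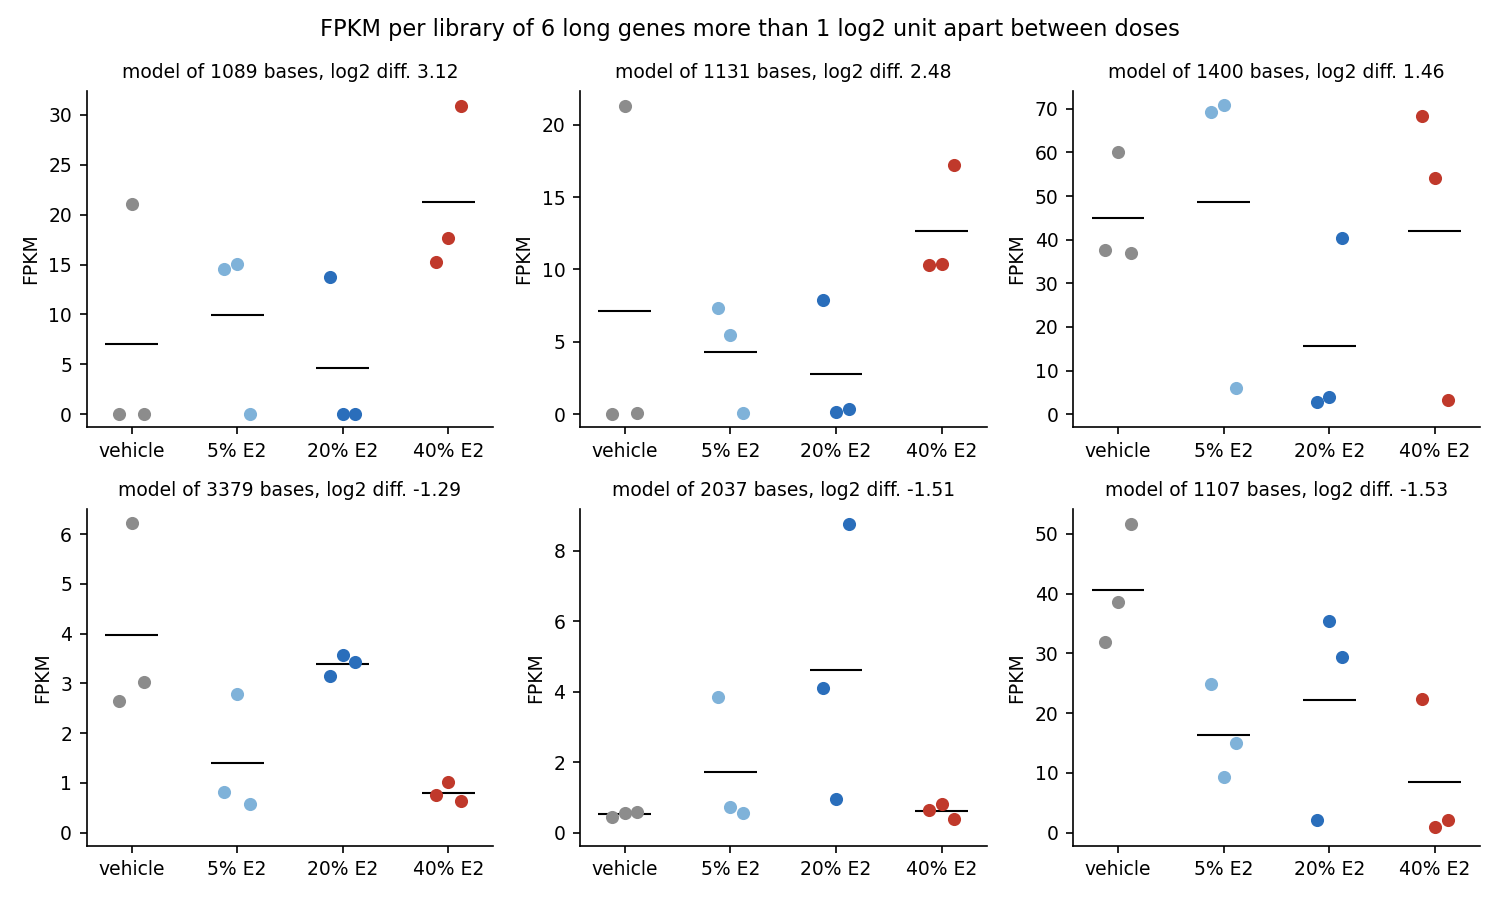
FPKM (vertical axis) per library and capsule group for the 3 highest and 3 lowest differences among the 21 genes of 1000 bases or more that were over 1 log2 unit apart and not called; points are libraries, black lines group means. Most switch between low and high libraries within a group, as the gene of 1089 bases does from 0 to 13.8 FPKM at 20% E2, while the gene of 3379 bases is tight within both doses.

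The few abundant genes that differed most between the doses also varied within the groups. Of 7230 genes with a mean of at least 10 FPKM over the 6 libraries, 19 differed by more than 1 unit, 9 with higher and 10 with lower values at 40% E2. The doses did not overlap in 4 of the 19, which the choice by difference favours. Among all genes tested, the share was 8.3% at 10 to 50 FPKM and 6.85% at 50 FPKM or more. In 18 of the 19 the libraries of 1 dose spread over more than 1 unit, and in 17 so did those of vehicle or 5% E2. The exception within the doses was ENSRNOG00000012490. The most abundant with higher values was a gene of 972 bases at 13.1, 80.3 and 74.0 FPKM at 20% E2 and 165, 205 and 204 at 40% E2 (log2 difference 2.11, interval −0.01 to 4.24, limma adjusted p = 1.0). Vehicle libraries were at 52.1, 196 and 236 FPKM, so that 2 of the 3 were within or above the 40% range.

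For most genes the data bounded how far apart the doses could be. The 95% confidence interval of the difference lay within 1 log2 unit of 0 for 89.4% of the genes tested and within 0.5 units for 68.1%. For genes of 10 to 50 FPKM these shares were 97.4% and 89.6%, and for genes of 50 FPKM or more 98.7% and 93.7%. Below 2 FPKM they were 64.2% and 15.3%. The median half-width of the interval was 0.286 units over all genes, 0.571 below 2 FPKM and 0.183 at 50 FPKM or more. A p above the threshold does not show that the doses act alike, and the intervals state what remains possible for each gene. On the log2(FPKM + 1) scale, 1 unit can be more than a doubling for low genes.

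The libraries of the 2 doses were about as far from each other as from their own replicates. Root mean square differences of log2(FPKM + 1) over the genes tested were 0.392 to 0.450 (median 0.428) for the 9 pairs across the doses. They were 0.395 to 0.443 for the 3 pairs within 20% E2 and 0.425 to 0.448 within 40% E2. Each library at 40% E2 was on average nearer to the 20% libraries (0.421, 0.414 and 0.442) than to its own group (0.437, 0.436 and 0.447). Of the libraries at 20% E2, replicates 1 and 2 were nearer to their own group (0.437 and 0.419) than to the 40% libraries (0.441 and 0.425), and replicate 3 was not (0.413 and 0.411). Pairs of vehicle with 20% E2 had a median of 0.451, and of vehicle with 40% E2 0.459, with vehicle pairs themselves at 0.445 to 0.511. The median within-group SD per gene was 0.125 at 20% E2, 0.132 at 40% E2 and 0.158 in vehicle.

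Genes that already differed at 20% E2 would bear most directly on the question. Only 1 gene passed the threshold between 20% E2 and vehicle, with a model of 79 bases, and its 40% level can be set beside it. It was listed at 0 in all 3 libraries at 20% E2 and at 0.943, 0 and 0 FPKM at 40% E2, which is 1 fragment. Vehicle libraries were at 10.2, 5.66 and 4.50 FPKM on 26 fragments, and those at 5% E2 at 1.66, 1.56 and 3.25 on 8. The doses differed by a log2 difference of 0.32 with an interval of −0.39 to 1.03 (limma adjusted p = 1.0). Both doses were at or under the floor, so a further fall at 40% E2 could not have been seen. The log2 difference of 40% E2 from vehicle was −2.57 (limma adjusted p = 0.0737). This gene met the filter on low values only through vehicle and 5% E2 libraries, where it is high, so nothing about saturation is read from it.

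A low-dose set was taken from the 6 libraries outside the comparison. In 667 genes (4.51%) all libraries at 5% E2 were above all vehicle libraries, and in 671 (4.54%) all were below. Of the 667, 24 were higher and 33 lower at 40% than at 20% E2 without overlap, together 8.55%. Of the 671, 46 were higher and 38 lower, together 12.5%. Over all genes tested the share was 8.42%. No gene of either set passed the threshold between 40% and 20% E2, and their median differences were 0.007 and 0.001. The 2 sets, at 4.51% and 4.54% of genes, were about as large as those separated between 40% and 20% E2 (4.33% and 4.09%). Separation alone thus does not show that their genes respond to 5% E2. The share of 12.5% for the 671 genes is a description without a test, and nothing is read from it.

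Genes at 0 throughout one dose were few and thinly counted. All 32545 genes listed were searched, not only those tested. In 38 genes every library at 20% E2 was at 0 and every library at 40% E2 above 0, and in 45 the reverse held. Of these, 4 of the 38 and 6 of the 45 met the filter and were tested. The fragments of the 3 libraries above 0 summed to a median of 7 and 8, with at most 14 and 23. None reached 30 fragments. The best counted, a gene of 1802 bases, was at 0.246, 0.239 and 0.357 FPKM at 20% E2 (23 fragments) and listed at 0 at 40% E2. Its vehicle libraries, at 0.0956, 0.289 and 0.165 FPKM, were all above 0, and it was too low to be tested.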

How the data were processed

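The authors deposited 1 FPKM table per library, the unit being per the file names. As tools, DESeq2, featureCounts, HISAT2, fastp and CASAVA are listed in the submitters' processing notes, with neither version nor role. Genome build, annotation and strand setting were not given in the sources used here. Reads of overlapping, antisense or near-identical genes may be assigned to the wrong gene. A table of the whole series repeats the same 12 columns under a header that is out of line, and was not used.

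Members and gene lists were chosen with earlier results of these data known. Group means were fitted to log2(FPKM + 1) of all 12 libraries with limma 3.58.1 (R 4.3.3), using trended, robust empirical Bayes moderation and Benjamini-Hochberg adjustment over the 14781 genes tested. Leading genes were the 12 of smallest p each way with a mean FPKM of 2 or more at either dose. The rule also asked for a gene symbol and for fixed genes, which could not be matched. The 22 alternatives covered the pseudocount, the filter, scaling, the variance model, the libraries used, a replicate term, voom and leaving out each library. Genes over 1 log2 unit apart, the low-dose set and genes at 0 were chosen after their values were seen.

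The FPKM values of the 21071 genes with signal in 2 or more libraries were turned into fragments and model lengths, taking the smallest whole numbers that match. Every one of these genes gave whole fragments (100%), with a deviation of at most 0.000991. A candidate length had to give whole fragments within a tolerance of 0.0001, rising to at most 0.02 for the largest values, so low genes may have a multiple of both. Recovery and fit were tested on simulated data. Libraries of a dose differed by more than counting noise (chi-square per degree of freedom 7.26 to 11.1), so none was treated as a library deposited more than once. This does not show that they came from separate animals.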

Additional observations from a re-analysis of the deposited data

Results flagged for a closer look

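ENSRNOG00000012490 is listed because the 2 doses differed when tested directly. The log2 difference of 40% minus 20% E2 was 1.51 (limma adjusted p = 0.038, and 0.00291 to 0.361 over the 22 alternatives). The gene was higher in all 3 libraries at 40% E2 than in any of the 3 at 20% E2. The difference was chosen from the same test that called it.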

How the results depend on the processing

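The number of genes higher at 40% than at 20% E2, 1 in the reported fit, became 0 with no filter on low values, with limma without trend and robust moderation, and with the replicate number of the labels as a block. It ranged from 0 to 1 when single libraries were left out, and the single call was another gene without 20% E2 replicate 1 or 3. The number of lower genes, 0 in the reported fit, ranged from 0 to 1 when single libraries were left out and was 0 otherwise. Filters with fewer or more genes also change the adjustment, and for the other settings the cause was not tested. In the fit with the replicate block, ENSRNOG00000012490 had an adjusted p of 0.193. Whether equal numbers pair the samples was not settled. Deviations of same-numbered libraries at 20% and 40% E2 correlated at 0.058, 0.072 and −0.013, and those of differently numbered libraries at −0.107 to 0.046. Replicates 1 and 2 at 20% E2 each correlated best with the same number at 40% E2. Replicate 3 at 20% E2 correlated best with replicate 2 at 40% E2. The share of genes with an interval within 1 log2 unit ran from 81.6% to 95.4% over the 22 alternatives. Of 519 values of the 24 leading genes under alternatives, none changed sign, 12 lost and 1 gained a call. The doses did not overlap in any of the 24, so a change of sign was hardly possible and nothing is read from its absence.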
